A study of Mus musculus with 2 samples.

Results

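Rnf128 encodes GRAIL, a membrane-bound RING ubiquitin ligase first known from anergic T cells, and it was described here in fetal lung cells together with genes of the same anergy programme. The set held 9 of the 32285 genes in the matrix, namely Rnf128, Cblb, Itch, Ndfip1, Dgka, Dgkz, Egr2, Egr3 and Ubash3a, each found by its symbol. Rnf128 was chosen by its difference between DEX and PBS litters in ILC2-like cells, set against basophil or mast-like cells, and Ubash3a was chosen by its lower level in ILC2-like cells of DEX litters. The values of those contrasts are therefore given for these genes as a description, without a test. The other 7 members were listed for their role, though with earlier results of these data known.

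Live CD45+ Lin- ST2+ cells, a gate that keeps cells carrying the IL-33 receptor, were sorted from wild-type mouse fetal lungs on gestation day 18. The mothers, 9-week-old pregnant mice, drank water with dexamethasone (DEX, a synthetic glucocorticoid) at 1.3 µg/ml or, as controls, with phosphate-buffered saline (PBS), starting on gestation day 12. Each litter was pooled under its own hashtag antibody for 10x 5′ single-cell sequencing, and DEX-1 and DEX-2 held 8 and 9 fetuses, PBS-1 and PBS-2 5 and 8. Each group had 2 litters, which were the replicates, and single fetuses cannot be told apart within a litter.

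Anergy is a state in which a T cell that receives an antigen signal without costimulation stops responding. In it the transcription factors Egr2 and Egr3 raise ubiquitin ligases such as GRAIL and Cbl-b, which mark receptor and signalling proteins for removal, while diacylglycerol kinases consume the lipid messenger diacylglycerol. Type 2 innate lymphoid cells (ILC2s) lack an antigen receptor but share much of the signalling machinery below it, and in the lung they respond to IL-33.

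After filtering, 7268 cells with a single hashtag remained, 1737 to 1890 per litter, with 18665955 to 23660294 unique molecular identifiers (UMIs) per litter. Of them 2074 (28.5%) were ILC2-like and 3434 (47.2%) basophil or mast-like, and the other named classes were epithelial-like, macrophage or monocyte-like, endothelial-like, B-like and mesenchymal-like. Levels are counts of a gene in 1000000 gene UMIs (CPM) over all cells of a class in a litter and are compared only within a gene. The 11 ILC2 markers summed to between 4245 and 4681 CPM in the ILC2-like class and to between 388 and 475 in the basophil or mast-like class, and for 14 basophil or mast markers the sums were 372 to 545 and 36270 to 46068 CPM. The ILC2-like class also held Cd3e, which encodes a T cell receptor subunit, between 37.2 and 61.6 CPM, although the sort removed cells stained for CD3e, CD4 or CD8A, and the part of T cells in the results was not tested. Where a group has a pair of values, that of litter 1 comes first.

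The promoters of Rnf128 and Ubash3a are shown because both genes were lower in ILC2-like cells of DEX litters. Rnf128 (ENSMUSG00000031438) has 3 annotated transcripts between 139563316 and 139673145 on the plus strand of chromosome X (GRCm38), and its RefSeq start lies inside that span. Ubash3a (ENSMUSG00000042345) spans 31207873 to 31246892 on the plus strand of chromosome 17. Each stretch runs 5′ to 3′ on the plus strand from 250 bases before to 50 bases after the RefSeq start in GRCm38.p6, at chrX:139610370-139610669 for Rnf128 and chr17:31207816-31208115 for Ubash3a. Capitals mark the NFAT core GGAAA on either strand, NFAT being the calcium-driven factors that start the anergy programme.
Rnf128: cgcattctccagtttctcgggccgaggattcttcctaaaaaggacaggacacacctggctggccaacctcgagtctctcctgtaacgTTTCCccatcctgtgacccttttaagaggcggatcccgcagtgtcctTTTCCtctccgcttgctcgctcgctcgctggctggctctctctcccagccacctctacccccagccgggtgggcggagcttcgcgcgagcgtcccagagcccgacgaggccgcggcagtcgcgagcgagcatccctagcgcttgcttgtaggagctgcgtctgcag
Ubash3a: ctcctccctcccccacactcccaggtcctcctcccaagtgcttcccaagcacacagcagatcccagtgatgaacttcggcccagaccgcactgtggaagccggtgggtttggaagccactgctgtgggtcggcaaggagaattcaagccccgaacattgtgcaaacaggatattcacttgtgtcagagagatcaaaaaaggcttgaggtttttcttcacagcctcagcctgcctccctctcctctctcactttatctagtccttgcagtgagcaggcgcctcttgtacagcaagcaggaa
The Rnf128 stretch held 26 CG pairs at 63.0% G and C, against 6 pairs at 54.7% in Ubash3a. GGAAA occurred at 2 places in Rnf128 and 0 in Ubash3a, and 61.3% of 32851 promoters of the same length held it. Neither stretch held the Egr site GCGNGGGCG (5.55% of promoters), the AP-1 site TGANTCA (7.81%), the short glucocorticoid receptor element AGAACA (19.0%) or the full glucocorticoid receptor palindrome (0.0091%), searched on both strands with overlaps allowed. RefSeq promoters were matched for 6 of the 9 members.

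Rnf128 was highest in ILC2-like cells. Over 4 litters it averaged 257 ± 110.1 CPM there (mean ± SD), from 4591 UMIs, against 82.1 ± 5.67 CPM in basophil or mast-like cells. Mesenchymal-like cells followed at 38.2 ± 12.6 CPM, epithelial-like cells at 20.8 ± 6.07, endothelial-like cells at 16.5 ± 6.21, macrophage or monocyte-like cells at 12.4 ± 13.2 and B-like cells at 5.21 ± 6.22. The litters of ILC2-like cells all lay above those of basophil or mast-like cells, which lay above those of mesenchymal-like cells, whereas the later neighbours in this order overlapped. Mast cell RNA was present in the lower classes, with Cpa3, a mast cell protease, at 942 to 3550 CPM in mesenchymal-like cells, and its part in their Rnf128 was not tested.
A Rnf128 UMI was found in 60.8% of ILC2-like cells (median 7196 UMIs per cell), 41.5% of basophil or mast-like cells and 1.90% of B-like cells (median 3557 UMIs). After each cell was thinned to 2000 UMIs, which left out 26 ILC2-like, 256 basophil or mast-like and 14 B-like cells, the shares were 36.7%, 16.0% and 1.02%. Both leading classes thus stood far above the share in B-like cells, the named class with the least Rnf128. The level of free RNA was not measured.

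**Figure D1:**
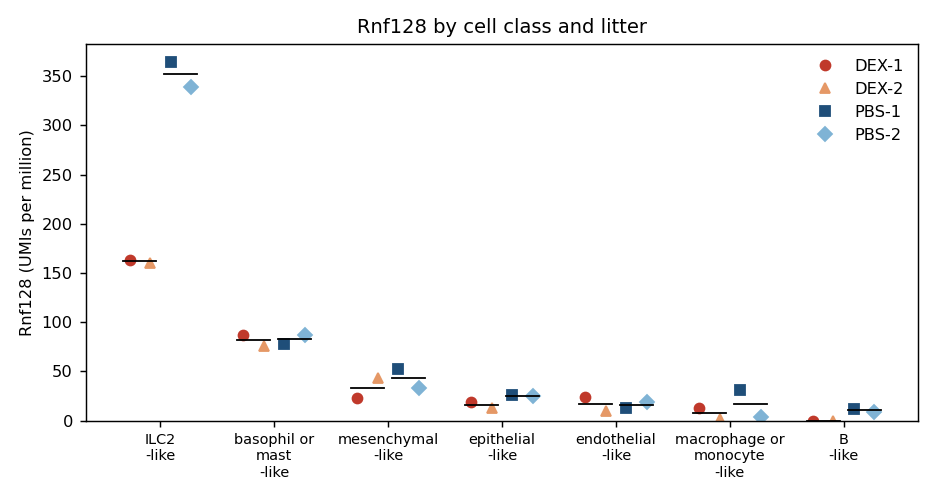
Rnf128 in CPM by cell class, with a point for each litter and a bar at the mean of the 2 litters of a group. In ILC2-like cells the DEX litters lie at 164 and 161 and the PBS litters at 365 and 339, while the litters of basophil or mast-like cells lie between 76.3 and 87.2.

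In ILC2-like cells Rnf128 measured 164 and 161 CPM in DEX and 365 and 339 CPM in PBS litters, counted as 775, 609, 1423 and 1784 UMIs. Both DEX litters lay far below both PBS litters, and the litters within a group differed little. The log2 fold change was -1.10 ± 0.08 (SE), a contrast that the choice of the gene had used. At equal depth the share of cells with a UMI was 26.0% and 27.3% in DEX against 49.9% and 43.2% in PBS litters. The share of cells with the transcript was thus lower in DEX litters too, but it comes from the same UMIs as the summed level and is no separate support.

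Basophil or mast-like cells of the same litters gave 87.2 and 76.3 CPM in DEX and 78.3 and 86.8 CPM in PBS litters. Here the groups overlapped, with a log2 fold change of -0.01 ± 0.10, and its sign turned without DEX-2, without PBS-2, with cells thinned, under a hashtag ratio rule and without M5, a subcluster low in mast cell markers that is described with the other subclusters. The DEX effect in ILC2-like cells minus that in basophil or mast-like cells was -1.10 ± 0.13 on the log2 scale, which again is a value that chose the gene, and -1.18 without M5.
Rnf128 is X-linked. A UMI of the X-inactivation transcript Xist was found in 51.5% and 35.0% of ILC2-like cells in DEX against 52.4% and 56.2% in PBS litters, and after thinning in 27.8% and 22.0% against 29.0% and 27.6%, so DEX-2 stood lowest. Its part in the Rnf128 levels was not tested. A list of 6 erythroid markers summed to 115 CPM in ILC2-like cells of DEX-1 against under 12 CPM in each of the other litters, and the part of these genes in the result was not tested.

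Epithelial-like cells had 19.1 and 12.9 CPM in DEX and 25.8 and 25.3 CPM in PBS litters, 217 UMIs in all, and the log2 fold change of -0.64 ± 0.23 did not pass (edgeR adjusted p = 0.860). Mesenchymal-like cells, at -0.36 ± 0.41 (edgeR adjusted p = 0.999), and endothelial-like cells, at 0.15 ± 0.49 (edgeR adjusted p = 1.00), held 81 and 59 UMIs and had wide errors. In macrophage or monocyte-like and B-like cells, with 24 and 5 UMIs, Rnf128 did not pass the filter on low counts. The B-like cells of DEX litters held 0 UMIs, which allows up to 15.2 and 14.4 CPM, counting error only.

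The ILC2-like class was split into 6 subclusters, made without the members, the related gene lists, Gata3, Nr3c1, Il1rl1 or sex-linked genes. I0 (398 cells) was led by mitotic genes such as Ube2c and Birc5, I1 (334 cells) by Ung, Irf1, Mcm2 and Mcm5, and I2 (759 cells) by Ctla2b, Ctla2a, Calca and Jdp2. I3 (216 cells) was led by Pla2g7, Atp4a and mast-associated genes such as Hdc, Gata1 and Cpa3, and I4 (335 cells) by Cd7, Lgals3, Ms4a4b, Tcf7 and Klf2. I5 held 32 cells with a median of 2274 UMIs, far under the 7196 of the class. I3 and I5 were given no state name, and all values by subcluster are a description.

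Rnf128 differed several-fold between these subclusters within a litter. I2 had 334 and 313 CPM in DEX and 606 and 579 CPM in PBS litters. I3 was in the same range, at 409 and 231 CPM in DEX and 719 and 736 CPM in PBS litters. In each litter both lay above I1, at 102 and 121 CPM in DEX and 260.4 and 270.3 CPM in PBS litters, and above the dividing cells of I0, at 63.2 and 76.1 CPM in DEX and 149 and 136 CPM in PBS litters.
The Cd7 and Tcf7 subcluster I4 stood low, at 64.9 and 60.4 CPM in DEX and 65.8 and 114 CPM in PBS litters. The ratio of DEX to PBS means on the log2 scale was -1.03 in I0, -1.25 in I1, -0.87 in I2, -1.18 in I3 and -0.52 in I4. In I0 to I3 both DEX litters were well below both PBS litters, whereas in I4 DEX-1 lay within 1 CPM of PBS-1. I5 ranged from 507 to 2511 CPM, from 121 UMIs.

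The subclusters were not equally filled, since I4, where Rnf128 was low, made up 19.9% and 22.7% of ILC2-like cells in DEX against 12.3% and 10.7% in PBS litters. In a calculation added after the data were seen, every litter was given the same subcluster shares, taken as shares of UMIs, not of cells, over all litters. Rnf128 was then 177 and 162 CPM in DEX and 335 and 336 CPM in PBS litters, a log2 ratio of -0.99. Without I3 and I5, likewise added, the log2 fold change was -1.06. It was -1.15 without the dividing cluster from the clustering of all cells (430 cells), which is not the same set as I0. The 14 basophil or mast markers summed to 1712 and 2877 CPM in I3 of DEX litters against 952 and 890 CPM in PBS litters.

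**Figure D2:**
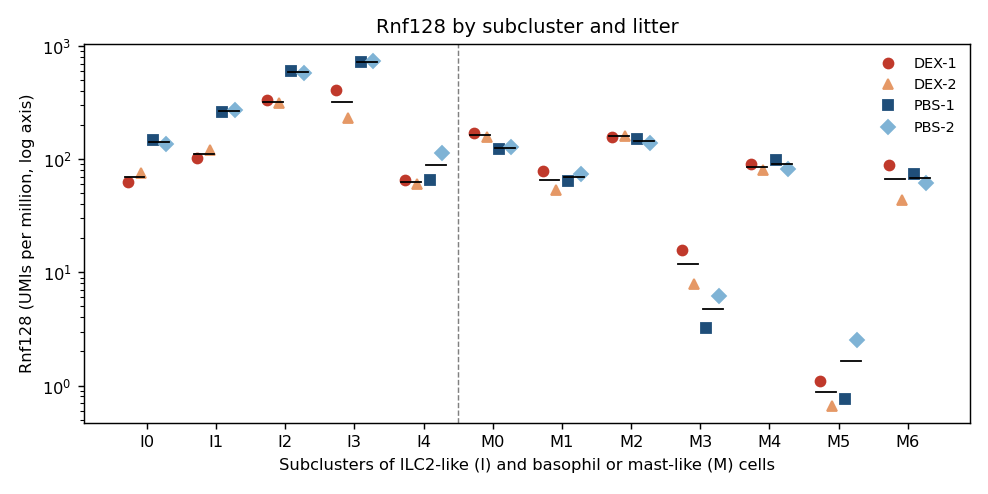
Rnf128 in CPM (log axis) in subclusters of at least 50 cells, with a point per litter and a bar at the mean of the 2 litters of a group; a dashed line parts ILC2-like (I) from basophil or mast-like (M) subclusters. DEX litters lie below PBS litters in I0 to I3, at 334 and 313 against 606 and 579 in I2, and M3 and M5 lie below 16 CPM.

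Basophil or mast-like cells fell into 9 subclusters with a sharp divide in Rnf128. M2 (1191 cells, led by H19, Thsd4 and Fgfr1 and also marked by Igf2 and Mcpt2) had 159 and 161 CPM in DEX and 152 and 139 CPM in PBS litters. M0 (210 cells, with the mast receptor genes Mrgprb1 and Mrgprb2) had 170.4 and 157 CPM in DEX and 123 and 129 CPM in PBS litters. In both, DEX litters lay above PBS litters, with log2 ratios of 0.13 and 0.37. The same held in M3, from 25 UMIs. The groups overlapped in M1 (355 cells) and M4 (869 cells), each at a log2 ratio of -0.07, and in M5, M6, M7 and M8.
Cells with connective-tissue mast protease genes (M4, with Cma1 and Mcpt4) averaged 87.9 ± 8.99 CPM. The chemokine-rich M3 (411 cells, with Ccl6, Ccl4 and Ccl9) averaged 8.23 ± 5.32 CPM. It also held the basophil protease genes Mcpt8 (1932 ± 628 CPM) and Prss34 (3936 ± 774 CPM), while Mcpt8 averaged 9.73 CPM in M0 and 49.1 in M2. M5 (208 cells, with Prtn3 and Car1) averaged 1.27 ± 0.87 CPM, from 6 UMIs at a median of 24894 UMIs per cell. The markers of M5 go against the name of its class, since Cpa3 averaged 119 ± 69.6 CPM and Hdc 152 ± 54.9 CPM there, against 17499 and 12687 CPM in M0. The 14 basophil or mast markers summed to between 540 and 1111 CPM in M5, with Fcer1a at 0, and to 11213 CPM or more in each litter of the other subclusters of that class. The part of these markers in the Rnf128 levels was not tested.

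The 5 genes whose mean level followed that of Rnf128 most closely over 12 groups (the 6 ILC2-like subclusters and the other named classes) were Akap6 (Pearson's r = 0.980), Ndfip1 (0.979), Fbxo34 (0.973), Fbxl21 (0.968) and Ero1l (0.964), out of 12431 genes with at least 10 CPM in a group. Correlations were taken on log2(CPM + 1), and the groups share libraries and were derived from the same cells. I5, with 32 shallow cells and the highest mean Rnf128 of these groups (1473 CPM), counted as much as any other group. The part of I5 in the correlations was not tested. Of the other members, Ubash3a followed at r = 0.916, Dgka at 0.473 and Cblb at 0.434, while Egr3 and Egr2 ran the other way at -0.593 and -0.700.

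Cblb (ENSMUSG00000022637, chromosome 16, 52031225 to 52208048, plus strand) and Itch (ENSMUSG00000027598, chromosome 2, 155133509 to 155226855, plus strand) encode the other classical ligases of T cell anergy. Cblb was highest in B-like cells (88.0 ± 26.0 CPM), which overlapped mesenchymal-like cells, and among mast subclusters in M0 and M2 (99.6 ± 10.7 and 103 ± 17.0 CPM). In ILC2-like cells it was 48.8 and 39.5 CPM in DEX and 40.5 and 40.9 CPM in PBS litters. The groups overlapped, with a log2 fold change of 0.14 ± 0.13 (edgeR adjusted p = 0.755) whose sign turned without DEX-1 and with cells thinned. Basophil or mast-like cells had 61.6 and 52.2 CPM in DEX against 61.6 and 76.8 CPM in PBS litters, where DEX-1 and PBS-1 were all but equal, and the log2 fold change of -0.29 ± 0.14 did not pass (edgeR adjusted p = 0.904).

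Itch, a HECT-type ligase, was evenly spread over the classes, from 30.9 ± 4.71 CPM in epithelial-like to 60.2 ± 17.6 CPM in B-like cells, and each class overlapped its neighbours in the order. In ILC2-like cells it measured 33.8 and 38.2 CPM in DEX and 30.2 and 32.3 CPM in PBS litters. Both DEX litters were slightly above both PBS litters, by 0.21 ± 0.14 on the log2 scale (edgeR adjusted p = 0.625). In macrophage or monocyte-like cells Itch was 64.2 and 63.0 CPM in DEX against 27.0 and 37.7 CPM in PBS litters, a log2 fold change of 0.92 ± 0.29 from 100 UMIs (edgeR adjusted p = 0.665).

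Ndfip1 encodes a membrane adaptor that recruits and activates Itch and related HECT ligases. Like Rnf128 it was highest in ILC2-like cells, at 561 ± 23.4 CPM, where every litter lay above those of basophil or mast-like cells at 447 ± 53.9 CPM, and it was lowest in macrophage or monocyte-like cells at 205 ± 30.6 CPM. Among ILC2-like subclusters of at least 50 cells it was highest in I2 (719 ± 38.9 CPM) and I3 (689 ± 111) and lowest in I0 (437 ± 19.6) and I4 (466 ± 43.3). Subclusters of the basophil or mast-like class reached similar levels, with M0 at 698 ± 61.8 and M2 at 643 ± 90.5 CPM, and their litters overlapped those of I3. M5, where Rnf128 was near 0, had the least Ndfip1 of the subclusters of that class, at 93.7 ± 9.43 CPM.
The DEX contrast of Ndfip1 in ILC2-like cells was small. It measured 543 and 556 CPM in DEX and 595 and 549 CPM in PBS litters, a log2 fold change of -0.05 ± 0.07 (edgeR adjusted p = 0.880) with overlap of the litters. Basophil or mast-like cells had 417 and 387 CPM in DEX against 494 and 491 CPM in PBS litters, with no overlap and a log2 fold change of -0.29 ± 0.08 that did not pass (edgeR adjusted p = 0.746). The DEX effects in the 2 classes differed by 0.24 ± 0.11 (edgeR adjusted p = 0.788).

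Ubash3a encodes a phosphatase-like protein that binds Cbl and lowers antigen receptor signalling. Its mean was 21.0 ± 6.16 CPM in the ILC2-like and 19.1 ± 1.69 CPM in the basophil or mast-like class, which overlapped, and under 10 CPM on average in the other classes. Within ILC2-like cells it ran from 33.1 ± 5.64 CPM in I3 and 26.7 ± 7.95 in I2 to 7.01 ± 2.05 in I4, the order of Rnf128 over I0 to I4 as well. Among subclusters of the basophil or mast-like class the order differed, since M5 had 26.4 ± 3.88 CPM of Ubash3a and M0 had 4.24 ± 3.94.
In ILC2-like cells Ubash3a measured 17.3 and 14.5 CPM in DEX and 27.9 and 24.1 CPM in PBS litters, from 373 UMIs. Both DEX litters were lower, at a log2 fold change of -0.68 ± 0.17, the value by which it was chosen, and with equal subcluster shares the log2 ratio was -0.59. Basophil or mast-like cells had 18.6 and 17.1 CPM in DEX against 21.0 and 20.0 CPM in PBS litters, a log2 fold change of -0.20 ± 0.12 (edgeR adjusted p = 0.917). The DEX effects in the 2 classes differed by -0.50 ± 0.21, a value that contains the contrast by which Ubash3a was chosen and is given without a test.

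**Figure D3:**
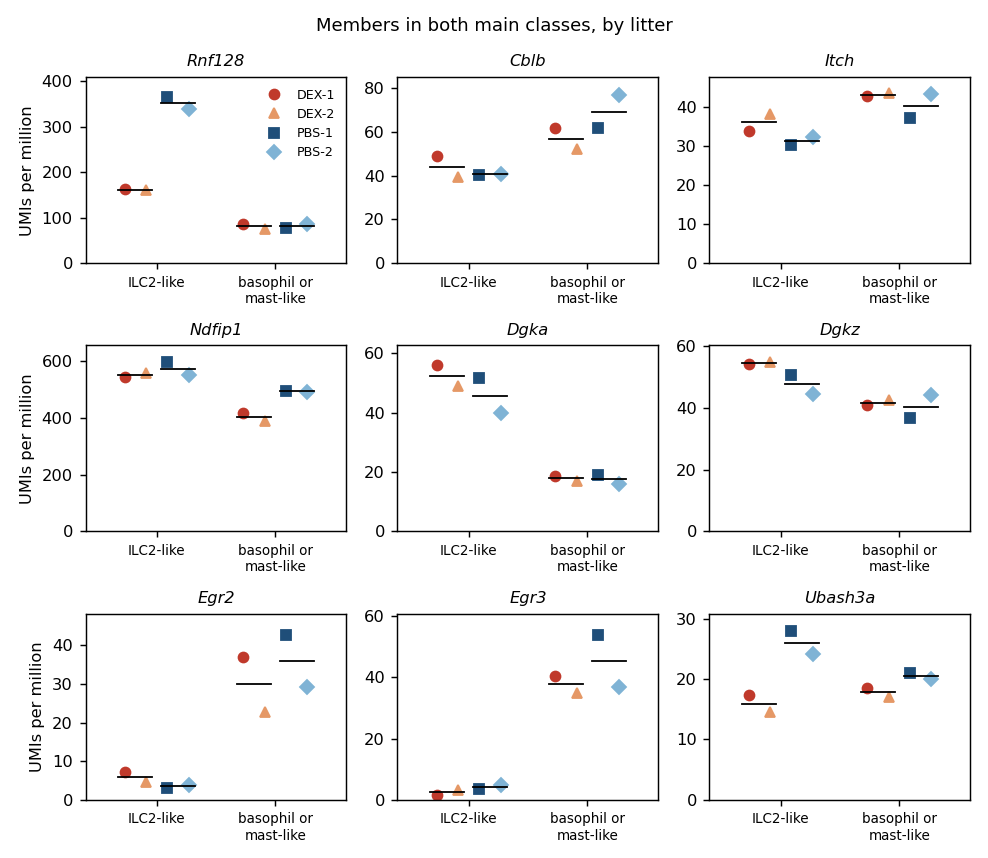
All 9 members in the ILC2-like and the basophil or mast-like class in CPM, with a point per litter and a bar at the mean of the 2 litters of a group; each panel has its own axis from 0. Rnf128 and Ubash3a in ILC2-like cells show the DEX litters apart from and below the PBS litters, and Egr2 and Egr3 in ILC2-like cells stay under 8 CPM.

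Dgka (ENSMUSG00000025357, chromosome 10, 128720134 to 128744855, minus strand) and Dgkz (ENSMUSG00000040479, chromosome 2, 91932824 to 91975864, minus strand) encode the diacylglycerol kinases that damp the Ras branch of antigen receptor signalling. Each overlaps a gene on the other strand, Pmel and Gm9821, which held 56 and 42 UMIs. Dgka was at 49.0 ± 6.84 CPM in ILC2-like cells, 45.3 ± 15.7 in B-like cells and lower in the other named classes, from 9.53 ± 2.89 to 24.8 ± 10.2 CPM. Within ILC2-like cells it was highest in I4, where Rnf128 was low, at 112 and 103 CPM in DEX and 105 and 93.3 CPM in PBS litters, above every litter of I0 to I3, which reached 61.5 CPM at most. In the whole class Dgka measured 55.9 and 48.8 CPM in DEX and 51.5 and 39.7 CPM in PBS litters. These overlapped, at a log2 fold change of 0.23 ± 0.13 (edgeR adjusted p = 0.528), and in I4 alone the log2 ratio was 0.12.
Dgkz was highest in endothelial-like cells (99.97 ± 11.5 CPM). In ILC2-like cells it measured 54.2 and 54.8 CPM in DEX and 50.7 and 44.5 CPM in PBS litters, a log2 fold change of 0.21 ± 0.11 (edgeR adjusted p = 0.484) without overlap of the groups. I3 had the least Dgkz of the ILC2-like subclusters, at 17.9 ± 10.8 CPM from 21 UMIs. In basophil or mast-like cells the log2 fold changes were 0.03 ± 0.14 for Dgka and 0.05 ± 0.12 for Dgkz (edgeR adjusted p = 0.985 and 0.978).

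Egr2 (ENSMUSG00000037868, chromosome 10, 67535475 to 67542188, plus strand) and Egr3 (ENSMUSG00000033730, chromosome 14, 70077203 to 70082614, plus strand), the zinc-finger factors above these ligases in the T cell programme, were scarce in ILC2-like cells. In ILC2-like cells Egr2 measured 7.2 and 4.5 CPM in DEX and 3.1 and 3.8 CPM in PBS litters, 83 UMIs in all, of which 22 lay in I3. Egr3 was at 1.69 and 3.16 CPM in DEX and 3.59 and 4.75 CPM in PBS litters, 59 UMIs in all, of which 15 lay in I3. At equal depth 0.732% of ILC2-like cells held an Egr2 UMI and 0.684% an Egr3 UMI, below the 2.55% and 5.61% of B-like cells.
The log2 fold changes in ILC2-like cells were 0.77 ± 0.35 for Egr2 (edgeR adjusted p = 0.368) and -0.83 ± 0.42 for Egr3 (edgeR adjusted p = 0.459), in opposite directions and neither past the threshold, although the groups did not overlap in either.

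The Mrgprb1 subcluster M0 had the highest level of both factors among basophil or mast-like subclusters. It held 341 of the 1053 Egr2 UMIs and 264 of the 1341 Egr3 UMIs of the class, while M2 held 388 of the Egr3 UMIs. Egr2 there was 228 and 157 CPM in DEX and 287 and 122 CPM in PBS litters, and Egr3 was 146 and 186 CPM in DEX and 183 and 119.5 CPM in PBS litters. Both groups overlapped for both genes, and M0 made up 4.72% and 4.39% of basophil or mast-like cells in DEX against 8.68% and 7.06% in PBS litters. Over all basophil or mast-like cells Egr2 was at -0.28 ± 0.25 and Egr3 at -0.27 ± 0.18 on the log2 scale (edgeR adjusted p = 0.947 and 0.931), again with overlap.
Macrophage or monocyte-like cells also carried Egr2, at 64.2 and 70.6 CPM in DEX against 46.3 and 43.7 CPM in PBS litters, a log2 fold change of 0.62 ± 0.25 (edgeR adjusted p = 0.723). Egr2 and Egr3 are immediate early genes, a kind that also responds to the handling of tissue. A list of 14 dissociation genes summed to 23573 to 27223 CPM in M0 against 14747 to 18135 CPM over all basophil or mast-like cells, and its part in the Egr levels was not tested.

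**Figure D4:**
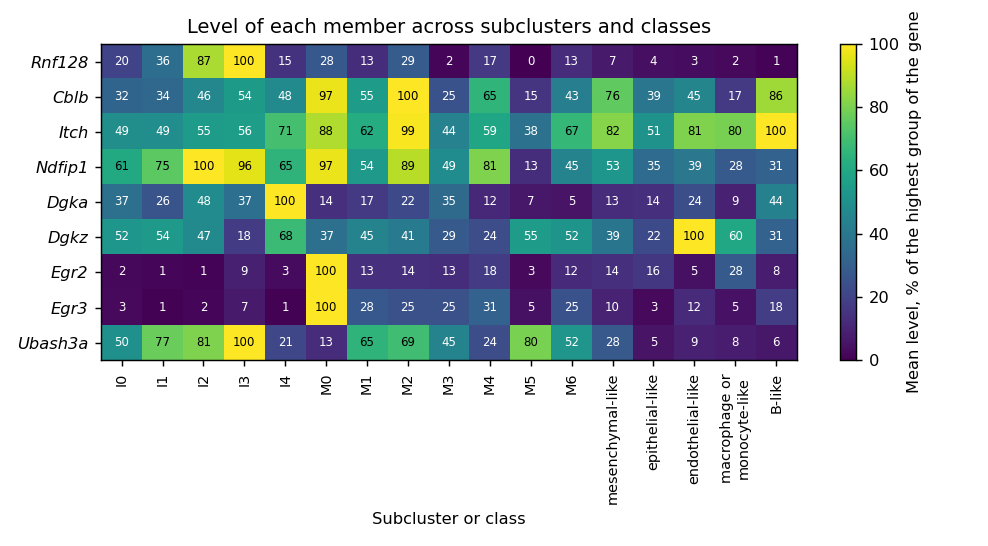
Mean level over 4 litters of each member in every subcluster of at least 50 cells and every other named class, as a percentage of the highest of these groups for that gene. Rnf128, Ndfip1 and Ubash3a are high in I2 and I3, Dgka peaks in I4, Dgkz in endothelial-like cells, and Egr2 and Egr3 in M0.

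Set against all genes, the members stood as follows. In ILC2-like cells 291 of 10645 genes (2.73%) passed at an edgeR adjusted p of 0.05, 142 higher and 149 lower in DEX litters, and 169 passed without DEX-1. The log2 fold change of all genes had a median of 0.00. All 9 members passed the filter, and 2 were called, Rnf128 and Ubash3a, which were selected on this contrast, so that nothing is read from the count. The call of Ubash3a was lost with DESeq2, with MULTIseqDemux, with cells thinned, without the dividing cluster, in cells with a Gata3 UMI, without I3 and I5, and without DEX-1, DEX-2 or PBS-1. The groups did not overlap for 6 of 9 members against 42.4% of all genes tested. None of the 7 members listed for their role passed, with log2 fold changes from -0.83 to 0.77.

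In basophil or mast-like cells 0 of 11857 genes (0%) passed by edgeR, no member among them, while 657 genes had an unadjusted p under 0.05 and DESeq2 called 16. The groups did not overlap for 3 of 9 members, Cblb, Ndfip1 and Ubash3a, all lower in DEX, against 34.8% of genes. For the difference of the DEX effect between the 2 classes 20 of 12345 genes (0.162%) passed (without PBS-1, 131 did, and without PBS-2, 106 did), and Rnf128, selected on it, was the only member among the 20. Without M5, an alternative chosen after seeing the data, 0 of 12164 genes passed this edgeR test of the difference and 574 had an unadjusted p under 0.05, while DESeq2 with M5 called 6. Of the smaller classes, edgeR called 2 of 3636 genes in B-like (0.055%), 0 of 8638 in endothelial-like (0%, with 249 at an unadjusted p under 0.05), 4 of 11297 in epithelial-like (0.0354%), 2 of 6000 in macrophage or monocyte-like (0.0333%) and 0 of 7007 in mesenchymal-like cells (0%, with 261 unadjusted). No member was called in them, with 4, 7, 8, 4 and 6 members tested in that order.

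**Figure D5:**
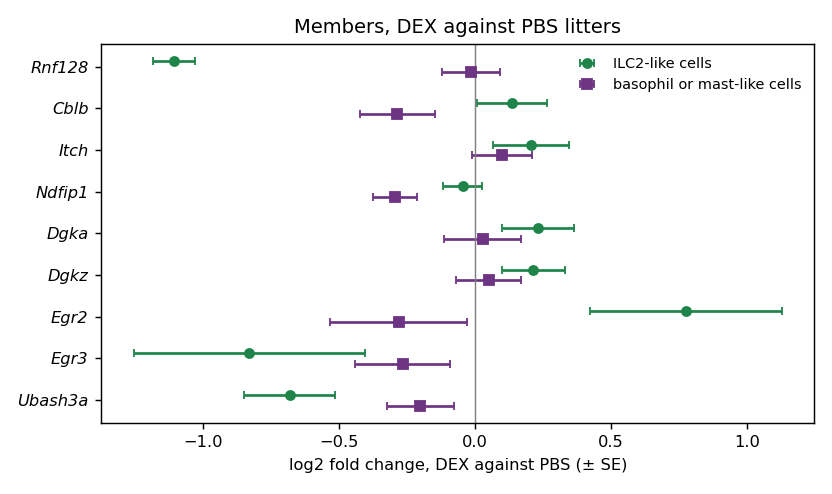
Log2 fold change of DEX against PBS litters with its standard error for each member in the ILC2-like and the basophil or mast-like class, from edgeR over 2 litters per group. Rnf128 lies at -1.10 in ILC2-like and at -0.01 in basophil or mast-like cells, and the other values lie between -0.83 and 0.77.

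The wider pathway was followed in 8 lists of 76 genes, of which 63 were tested in ILC2-like cells. The lists were chosen with earlier results of these data known, so the calls named below are a description and no separate support. Of these 1 was called higher and 3 lower, beside 2.73% of all genes, a share at which lists of 3 to 17 tested genes would hold few calls or none, and the median log2 fold change was -0.01. The other ubiquitin ligases, adaptors and deubiquitinases gave 0 calls in 17 tested genes (median -0.03). The protease-associated RING family to which Rnf128 belongs gave 0 calls in 6 (median -0.14), the other diacylglycerol kinases 0 in 3 (median 0.42) and the calcium and NFAT genes 0 in 8 (median 0.15).

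Among the receptors of anergic or exhausted T cells 1 of 6 tested genes rose, Pdcd1, which encodes the inhibitory receptor PD-1. It measured 78.3 and 74.1 CPM in DEX against 42.5 and 29.8 CPM in PBS litters, a log2 fold change of 1.11 ± 0.13 (edgeR adjusted p = 0.000158). All 6 tested genes of the 9 in this list had a positive value (median 0.72), but only Pdcd1 was called.
The other calls were falls. Nr4a2, an orphan nuclear receptor gene of the early response and the only call of 10 other nuclear regulators, was 349 and 334 CPM in DEX against 554 and 537 CPM in PBS litters, -0.66 ± 0.07 (edgeR adjusted p = 5.14e-05). Lat, the adaptor that links receptor-proximal kinases to phospholipase C, was 189 and 194 against 286 and 266 CPM, -0.51 ± 0.08 (edgeR adjusted p = 0.0014). It was the only call of 8 receptor-proximal genes and did not pass with cells thinned.
Ubash3b, the paralogue of Ubash3a and the only call of 5 tyrosine phosphatases, was 58.5 and 53.8 against 83.0 and 69.9 CPM, -0.42 ± 0.11 (edgeR adjusted p = 0.0488). Its call was lost without DEX-1, without DEX-2 and without PBS-1, at log2 fold changes of -0.47, -0.39 and -0.31, and with DESeq2. Pdcd1, Nr4a2, Lat and Ubash3b were compared over the whole ILC2-like class only. The part of the subcluster shares, which differed between DEX and PBS litters for I4, in these calls was not tested. In basophil or mast-like cells 0 of 61 tested pathway genes were called by edgeR (median -0.07).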

How the data were processed

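The authors sequenced the sorted cells with 10x Genomics 5′ chemistry and deposited one matrix of raw UMI counts for genes and hashtags, made with Cell Ranger 7 on mm10 per the labels. It held 10648 barcodes, of which 10409 had at least 200 genes and at most 5% mitochondrial UMIs. Litters were assigned with HTODemux (Seurat 5.3.0, quantile 0.99), which dropped 736 barcodes with several hashtags and 2405 with none. Doublets within a litter were not removed. The study's methods and labels differ from one of its legends in the number of mothers, and the hashtags were followed.

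Clustering used scanpy 1.11.5 (2000 variable genes, 20 components, 15 neighbours, Leiden resolution 0.5) with members and lists kept out, and classes were named by marker lists for 16 cell types, so the names are rebuilt. Counts were summed per class and litter and tested with the edgeR 4.0.16 quasi-likelihood F-test (TMM, filterByExpr, two-sided, Benjamini-Hochberg over all genes, threshold 0.05). The difference between classes was fitted with the litter as a term. A standard error is the log2 fold change over the square root of F. P-values set the difference against the spread between 2 litters per group, which edgeR moderates with information from all genes tested. A floor of 3 counts is 0.57 to 0.791 CPM in an ILC2-like litter, counting error only.

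Alternatives were RLE scaling, DESeq2 1.42.0, no filter, each litter left out, a replicate block, MULTIseqDemux, a hashtag ratio rule (at least 10 UMIs and 3 times the next), thinning to 2000 UMIs, no dividing cluster, cells with a Gata3 UMI and Leiden resolution 1.0. The fits were tested on simulated data. Named are all members, pathway genes called in either main class and the 5 genes most like Rnf128. The members and lists were chosen with earlier results of these data known. Sequences are from RefSeq (GRCm38.p6) and positions from GENCODE M21.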

Additional observations from a re-analysis of the deposited data

Results flagged for a closer look

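The DEX effect on Rnf128 differed between the ILC2-like and the basophil or mast-like class by -1.10 on the log2 scale, which is the value that selected the gene. Rnf128 also appeared in barcodes that carried no hashtag and entered no comparison. It was at 168 CPM in 13 ILC2-like barcodes (6 UMIs), 60.4 in 75 basophil or mast-like, 8.53 in 820 epithelial-like, 1.97 in 461 endothelial-like, 1.31 in 604 mesenchymal-like and 1.48 in 427 unnamed barcodes, each above 3 UMIs. Epithelial-like, endothelial-like and mesenchymal-like barcodes without a hashtag thus had less Rnf128 than the hashtagged cells of the same class, at 20.8, 16.5 and 38.2 CPM. So did basophil or mast-like barcodes, against a mean of 82.1 CPM, and the few ILC2-like barcodes, against a mean of 257 CPM. The litter of these barcodes is not known, and the differences were not tested.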

How the results depend on the processing

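In ILC2-like cells the log2 fold change of Rnf128 stayed between -1.16 and -1.06 and that of Ubash3a between -0.86 and -0.59 in every alternative run. Genes called there numbered 119 with DESeq2 (all of them among the 291), 513 with no filter on low counts, 440 with the replicate block, 73 with cells thinned and 169 to 430 with a litter left out (169 without DEX-1). With DESeq2, MULTIseqDemux, cells thinned, no dividing cluster, cells with a Gata3 UMI and, chosen after seeing the data, without I3 and I5, 1 member was called in place of 2, and 1 to 2 with a litter left out, Ubash3a being the one lost. With cells thinned 2 pathway genes were called. In basophil or mast-like cells the calls were 16 with DESeq2, 212 with no filter, 4 with the replicate block and 1 to 6 with a litter left out. For the difference between the classes they were 13 with RLE scaling, 6 with DESeq2, 109 with no filter and 20 to 131 with a litter left out (131 without PBS-1, 106 without PBS-2). Without M5, chosen after seeing the data, the difference gave 0 calls and basophil or mast-like cells again 0. No source shared by litters of the same number is named in the study's methods. Across genes, DEX-1 minus DEX-2 correlated with PBS-1 minus PBS-2 at 0.0625 in ILC2-like and -0.0753 in basophil or mast-like cells. With 2 litters per group this cannot show whether such litters share a source. The replicate block changed no call of a member. Thinning moved the mean Rnf128 level of ILC2-like cells to 213 CPM in DEX and 465 in PBS litters. That of basophil or mast-like cells moved to 96.5 CPM in DEX and 90.2 in PBS litters. Thinning gives each kept cell the same weight and also leaves out the shallowest cells. The part of each in these shifts was not tested.

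Several small log2 fold changes turned sign, and the cause was not tested. In ILC2-like cells with a litter left out, Cblb ranged from -0.0145 to 0.25 and Ndfip1 from -0.10 to 0.0028, and Cblb was -0.0308 with cells thinned. In basophil or mast-like cells with a litter left out, Rnf128 ranged from -0.11 to 0.0773, Itch from -0.016 to 0.23, Dgka from -0.0801 to 0.15, Dgkz from -0.0853 to 0.20, Egr2 from -0.65 to 0.037 and Egr3 from -0.50 to 0.0189. There Rnf128 was 0.0019 and Dgka -0.0175 under the hashtag ratio rule, Rnf128 was 0.0909 and Dgkz -0.10 with cells thinned, and Rnf128 was 0.0806 without M5. For the difference between the classes Dgkz ranged from -0.0725 to 0.38 with a litter left out, and Egr3 was 0.39 with cells thinned. No change of sign concerned a value that had passed the test.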
